A study of Mus musculus with 6 samples.

Results

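The genes described here are 10 genes of the heat shock response and of the unfolded protein response, which cells switch on when proteins misfold. They were read as a sign of toxicity in mice given fluorene-9-bisphenol (BHPF), a bisphenol used in plastics. The members were found by mapping the transcript accession of every probe other than controls to a gene symbol. Of the 20284 symbols on the array, 9 members were found, with 11 probes among 55681. *Hspa1a*, *Dnajb1*, *Hspb1*, *Hspa5*, *Ddit3*, *Trib3* and *Chac1* had 1 probe each, and *Hsph1* and *Atf4* had 2 each. No probe matched *Hspa1b*, so no value is given for it. Its copy *Hspa1a* is nearly identical in sequence, and the probe named *Hspa1a* may read the RNA of both.

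Immature female CD-1 mice received BHPF at 50 mg kg-1 bw d-1, or peanut oil as the control, through a stomach tube every day for 3 days. The labels give an age of 24 days, which is the age at collection in the study's methods and the age at the start of treatment in a legend of the study. RNA of the livers, ovaries and uteri was hybridized to single-colour Agilent arrays, with 1 array for each tissue and treatment, 6 arrays in all. Each array held 1 pool of RNA from 3 mice, so the spread between animals was not measured and a difference within a tissue has no replicate check and no p. The 6 arrays shared 1 slide and 1 scan, with the control arrays and the BHPF arrays in neighbouring rows of the slide, and position on the slide cannot be told apart from treatment. The tissues were collected from the mice of each treatment, so the 3 arrays of a treatment probably share mice.

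Between 61.3% and 74.5% of the probes were well above background on an array, with fewer on the BHPF array than on the control array in each tissue, and no probe was saturated. The tissue labels were checked against marker genes. On both arrays of a tissue, 17 of 17 hepatocyte marker probes in the liver, 12 of 12 granulosa cell and oocyte marker probes in the ovary and 14 of 14 uterine marker probes in the uterus were well above background. That call alone does not separate the tissues, as all 17 hepatocyte probes also passed on both ovary arrays. Median log2 control levels of the hepatocyte markers were 5.07 in the liver, -1.65 in the ovary and -2.76 in the uterus. In the same order, granulosa cell and oocyte markers had -5.97, 2.14 and -4.99, and uterine markers -2.81, -4.82 and 1.06. Some markers also differed with treatment. In the uterus the summed linear level of the hepatocyte markers was 3.93 for control and 56.2 for BHPF, with 16 of 17 probes at least 2-fold higher. The summed level of the neutrophil markers was 99.3 for control and 40.2 for BHPF in the liver, 16.1 and 12.4 in the ovary, and 51.4 and 41.1 in the uterus, with 12 of 15, 8 of 13 and 6 of 14 evaluated probes at least 2-fold lower. In a table of processed values deposited with the arrays, the scanner values of the control uterus array stood under the BHPF heading and those of the BHPF uterus array under the control heading, within 0.001 on the log2 scale for 100% of 38450 probes. Here the scanner values are used, each under the label of its own file. With the table as headed, every uterus ratio given below would change sign.

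Heat shock proteins are chaperones that hold or refold damaged proteins in the cytosol, and the transcription factor HSF1 raises their transcription within minutes to hours of heat, heavy metals or reactive chemicals. The unfolded protein response does the same for the endoplasmic reticulum, where membrane sensors slow translation, raise chaperones and, if the stress lasts, raise genes tied to cell death. The PERK arm of that response joins the integrated stress response at ATF4, which also answers to amino acid shortage. In the liver, which secretes large amounts of plasma protein and converts foreign chemicals, both systems are commonly used as read-outs of chemical injury.

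The promoters of the members were searched in the RefSeq sequences of GRCm38.p6, over the 250 bases before each annotated start, 12 windows for 10 genes, because a shared element would group the members by the factor that can bind them. The motifs were searched on both strands, and none of their matches overlapped. The heat shock element GAANNTTCNNGAA was in 0 of the 12 windows and in 0.466% of 32851 promoters. The endoplasmic reticulum stress element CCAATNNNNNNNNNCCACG, a site of NF-Y and ATF6, was in 1 window, that of *Hspa5*, and in 0.113% of all promoters. The element TGATGNAA, the composite site of C/EBP and ATF factors, was in 1 window, that of *Chac1* on the opposite strand, and in 3.45% of all promoters. The matches begin 65 bases before the start of *Hspa5* and 193 bases before the start of *Chac1*, and both are shown with the bases around them, with the match in capitals. A match is only a match of letters, and its absence says only that these letters are not in this window. The last pair of lines shows the stretch that holds 2 of the 3 differences between the upstream sequences of *Hspa1a* and *Hspa1b*, with the differing bases in capitals. It is shown because 247 of their 250 upstream bases are identical, and the likeness of the copies bears on how the *Hspa1a* probe is read.
Hspa5, chr2:34772005-34772063, plus strand: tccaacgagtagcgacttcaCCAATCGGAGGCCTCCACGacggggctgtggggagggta
Chac1, chr2:119351029-119351076, plus strand: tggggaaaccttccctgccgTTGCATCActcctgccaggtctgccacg
Hspa1a, chr17:34972345-34972378, minus strand: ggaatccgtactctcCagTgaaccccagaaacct
Hspa1b, chr17:34959427-34959460, minus strand: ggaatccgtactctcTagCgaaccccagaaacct

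No member reached a 2-fold difference between the BHPF array and the control array in any tissue. All 11 probes were well above background on all 6 arrays, so each ratio was measured on both sides. A level here is the log2 intensity of a probe minus the 75th percentile of its array, and a log2 ratio is the BHPF level minus the control level within a tissue. In the liver, 0 of the 11 probes were 2-fold higher or lower, where 6.02% of 36578 evaluated probes were 2-fold higher and 1.07% were 2-fold lower. In the ovary the count was again 0 of 11, beside 0.681% of 41674 probes higher and 0.593% lower. In the uterus it was 0 of 11, beside 1.88% of 38802 probes higher and 0.773% lower. A count of 0 of 11 is near these shares in each tissue.

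The members' log2 ratios ran from -0.54 to 0.68 in the liver, from -0.22 to 0.41 in the ovary and from -0.28 to 0.35 in the uterus. Their medians were 0.03, 0.02 and -0.08, beside 0.06, 0.00 and 0.01 over all evaluated probes of the same tissues. At a 1.5-fold threshold 1 member probe, *Hspa1a* in the liver, was higher and none was lower in any tissue. The share of all probes past 1.5-fold was 13.7% higher and 3.5% lower in the liver, 2.11% and 2.12% in the ovary, and 4.31% and 2.65% in the uterus. The only error that can be measured within an array is that between spots of 1 probe, which gave a log2 ratio an SD of 0.164 in the liver, 0.153 in the ovary and 0.160 in the uterus. Probes of 1 gene differed more than that, with an SD of 0.297, 0.223 and 0.227. More than 2 spot SDs from 0 lay 4 member probes in the liver, 1 in the ovary and 2 in the uterus, while 35.1%, 17.0% and 21.8% of all probes did so.

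**Figure D1:**
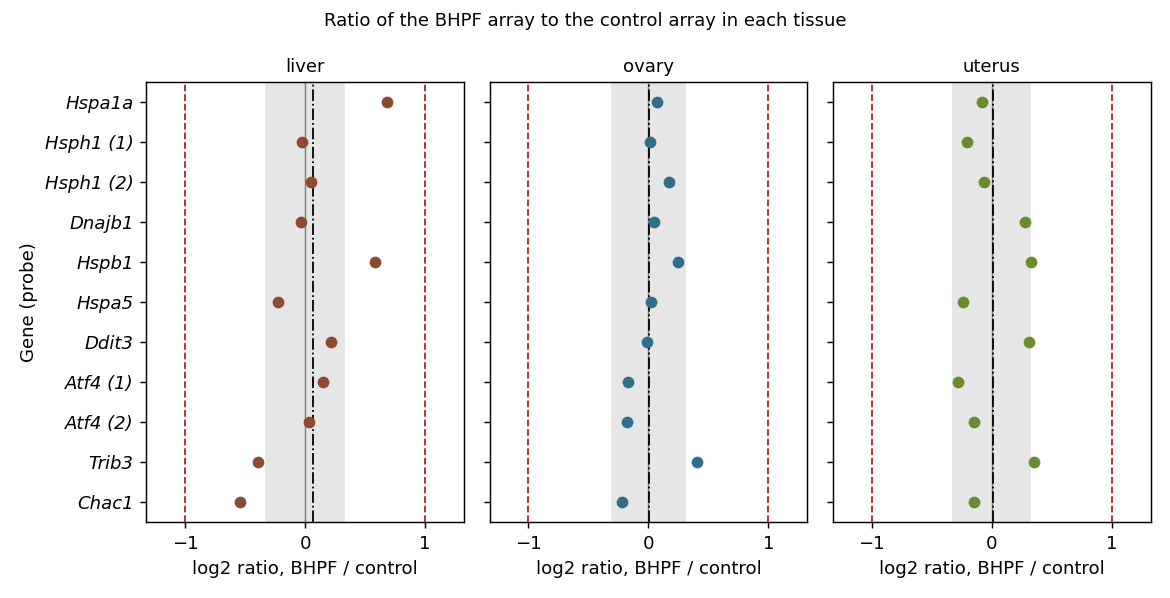
Each point is the log2 ratio of 1 probe on the BHPF array over the control array, for liver, ovary and uterus, with genes on the vertical axis and probes of 1 gene numbered. The grey band spans 2 spot SDs on either side of 0, the dash-dotted line is the median of all evaluated probes and the dashed lines mark 2-fold; all 33 points lie inside the dashed lines, and the members spread most in the liver, from -0.54 to 0.68.

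The heat shock genes come first. *Hspa1a* encodes the stress-inducible Hsp70, whose RNA is among those that heat raises most. In the liver its level was -1.43 for control and -0.75 for BHPF, in the ovary -0.31 and -0.24, and in the uterus 0.68 and 0.60. The BHPF array was thus 1.60-fold higher in the liver, and the arrays nearly coincided in the other tissues, with log2 ratios of 0.07 and -0.08. The liver difference was 4.14 times the spot SD, but 11% of all evaluated liver probes were at least as much higher. It was 0.36 when the arrays were aligned at their 50th percentile and 0.34 with normexp, an alternative described below.

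*Hspb1* encodes a small heat shock protein that binds unfolding proteins without ATP and is abundant in muscle and epithelia. Its control and BHPF levels were -1.76 and -1.18 in the liver, 1.10 and 1.34 in the ovary, and 2.39 and 2.72 in the uterus. It was the only member gene with a log2 ratio above 0.2 in all 3 tissues, 0.58 in the liver, 0.24 in the ovary and 0.32 in the uterus. The ovary ratio was -0.01 after another background correction, normexp, and the liver ratio was 0.27 with the 50th percentile. Normexp models the background of each spot, and it started from the median spot intensity in place of the processed intensity used elsewhere. A change under it therefore cannot be credited to the background alone. The liver ratio at the 75th percentile, just under 1.5-fold, was reached or passed by 13.8% of the liver probes. The corresponding shares were 13.3% in the ovary and 12.1% in the uterus.

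*Dnajb1* encodes an Hsp40 co-chaperone that hands substrates to Hsp70, and *Hsph1* an Hsp110 protein that exchanges its nucleotide. The level of *Dnajb1* was 3.17 for control and 3.13 for BHPF in the liver, 2.96 and 3.01 in the ovary, and 2.40 and 2.67 in the uterus. The uterus arrays were furthest apart, by a log2 ratio of 0.28, or 1.21-fold and 1.73 times the spot SD. The brighter probe of *Hsph1* had levels of 1.95 and 2.01 in the liver, 1.72 and 1.89 in the ovary, and 1.39 and 1.33 in the uterus. Its other probe read 0.61 and 0.58 in the liver, 0.69 and 0.70 in the ovary, and -0.18 and -0.38 in the uterus. All 6 ratios of *Hsph1* lay between -0.21 and 0.17. *Hsph1*, *Dnajb1* and *Hspa1a* thus did not move as a group: in the liver *Hspa1a* was at 0.68 while the other 3 probes were between -0.04 and 0.05.

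Of the genes of the unfolded protein response, *Hspa5* encodes BiP, the main chaperone of the endoplasmic reticulum, which the sensors release when misfolded proteins occupy it. Its level was 3.89 for control and 3.66 for BHPF in the liver, 2.86 and 2.88 in the ovary, and 2.76 and 2.52 in the uterus. It was the brightest member probe in the liver on both arrays. The BHPF array was lower in the liver and in the uterus, with log2 ratios of -0.22 and -0.24, and level in the ovary, at 0.02. Both differences were under 2 spot SDs. With normexp and its median spot intensities, the same gene read 0.05 in the liver, 0.38 in the ovary and -0.01 in the uterus. Its direction in the liver thus depended on the processing.

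*Atf4* encodes the transcription factor whose translation rises when general translation is slowed, so its RNA level is only a partial measure of its activity. Its brighter probe had levels of 3.01 and 3.04 in the liver, 2.35 and 2.17 in the ovary, and 2.44 and 2.29 in the uterus. The other probe had 2.38 and 2.53 in the liver, 2.07 and 1.90 in the ovary, and 1.73 and 1.45 in the uterus. Both probes were higher with BHPF in the liver, by 0.03 and 0.15, and lower in the ovary, by log2 ratios of -0.18 and -0.17, and in the uterus, by -0.15 and -0.28. The liver direction of *Atf4* was not settled, as the mean of its probes went from 0.09 to -0.22 with the 50th percentile and to -0.24 with the other background correction. *Ddit3* encodes CHOP, a factor downstream of ATF4 that is tied to cell death under lasting stress. Its level was 0.94 and 1.15 in the liver, 1.51 and 1.5 in the ovary, and 1.5 and 1.81 in the uterus. The ratios were 0.22, -0.01 and 0.31, of which the uterus value was 1.24-fold and 1.93 times the spot SD.

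*Trib3*, a pseudokinase induced by ATF4 and CHOP, and *Chac1*, an enzyme that degrades glutathione and is induced by the same factors, are usually among the genes most raised by that pathway. *Trib3* had a level of 0.94 for control and 0.55 for BHPF in the liver, -2.65 and -2.24 in the ovary, and -1.73 and -1.38 in the uterus. It was 1.31-fold lower with BHPF in the liver and 1.32-fold higher in the ovary, and the uterus lay with the ovary at a log2 ratio of 0.35. *Chac1* had levels of 1.10 and 0.56 in the liver, -2.86 and -3.08 in the ovary, and -2.89 and -3.04 in the uterus. It was lower with BHPF in all 3 tissues, by 1.45-fold in the liver and by log2 ratios of -0.22 and -0.15 in the ovary and uterus. A ratio as low as that of *Chac1* in the liver was found for 4.24% of the liver probes. In the liver *Ddit3*, *Trib3* and *Chac1* thus read 0.22, -0.39 and -0.54 at the 75th percentile, and -0.10, -0.70 and -0.85 at the 50th, where *Ddit3* changed sign.

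**Figure D2:**
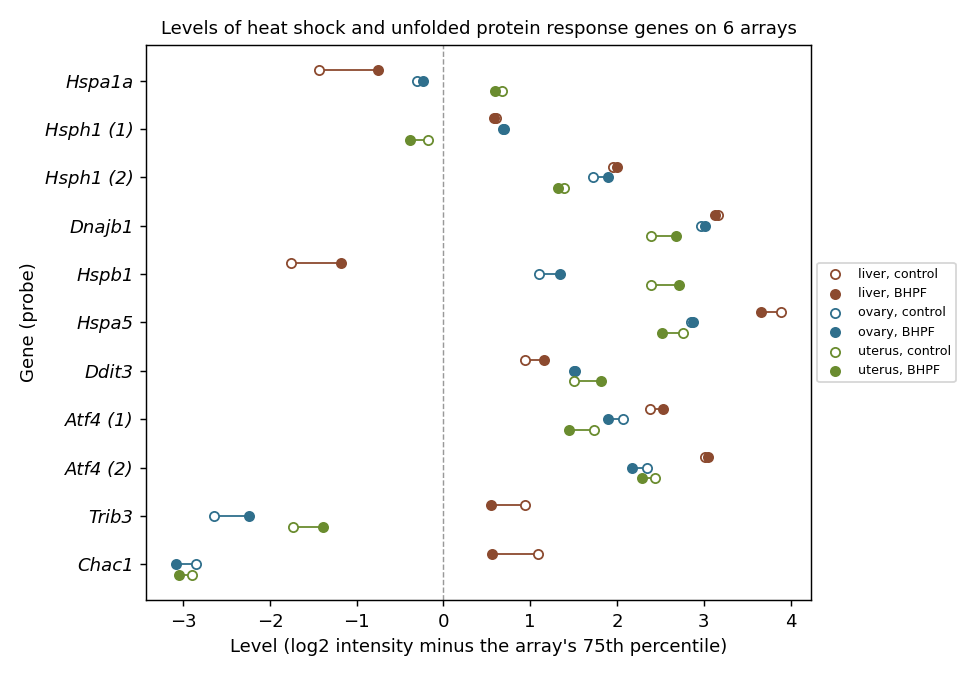
Levels of the 11 member probes on the 6 arrays, as log2 intensity minus the 75th percentile of the array, with open circles for control and filled circles for BHPF, and colours for liver, ovary and uterus. Lines join the 2 arrays of a tissue. For *Hspb1*, *Trib3* and *Chac1* they are short beside the gap between the liver and the other tissues, but not for every probe. *Ddit3* went from 1.5 to 1.81 in the uterus, with the control ovary at 1.51. *Hspb1* runs from -1.76 on the control liver array to 2.72 on the BHPF uterus array, while *Chac1* lies above 0 only on the liver arrays.

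The difference that all 3 tissues share was tested with limma on the 6 arrays, with tissue as a block. Of 43892 probes, 0 were called at an adjusted p under 0.05 (0%), and 2294 had an unadjusted p under 0.05. Among the members 1 probe, *Hspb1*, had an unadjusted p under 0.05, and 0 of 11 were called. *Hspb1* was higher with BHPF by 0.38 on the log2 scale (SE 0.125, 95% confidence interval 0.03 to 0.73, limma adjusted p = 0.768), in 3 of 3 tissues with the 75th percentile and in 2 of 3 with the other background correction. *Chac1* had a difference of -0.30 (SE 0.133, interval -0.67 to 0.07, limma adjusted p = 0.768), also with the same sign in 3 of 3 tissues. For *Hspa5* the interval ran from -0.48 to 0.18, and for *Ddit3* from -0.17 to 0.51. Neither reaches 2-fold, and both hold small changes in either direction. For *Hspa1a* the interval was -0.32 to 0.76 and for *Trib3* -0.46 to 0.71, each wider because the tissues differed. Because tissues of 1 treatment probably share mice, these p-values and intervals measure only the spread between the tissues' differences. With 1 pool for each tissue and treatment, they do not exclude a larger change among animals. The adjusted p of a member was never below 0.267 under any of the 19 alternatives.

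**Figure D3:**
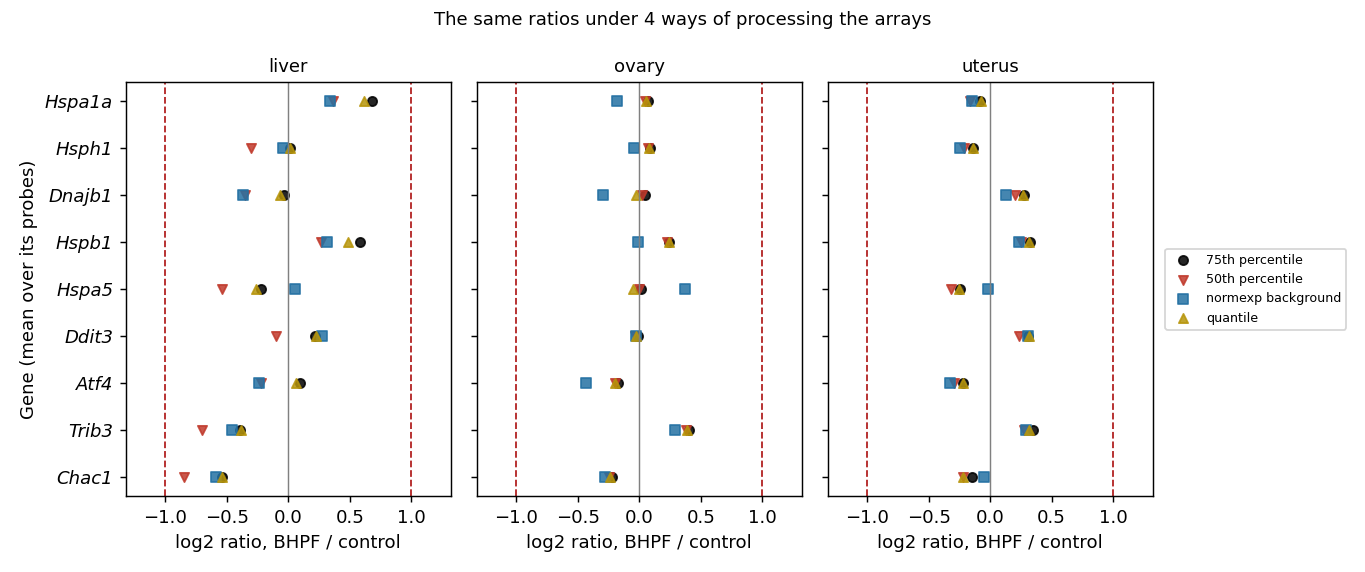
Log2 ratio of each member gene, as the mean over its probes, in liver, ovary and uterus. The arrays were aligned at the 75th percentile, at the 50th percentile, after normexp on median spot intensities or after quantile normalization. The dashed lines mark 2-fold; no gene reaches them under the 4 settings, and the liver points move to the left with the 50th percentile, *Chac1* to -0.85.

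The liver values depend on how the arrays were aligned. At the 50th percentile the median of all liver probes was -0.22 in place of 0.06, the members' median was -0.28, and 2 member probes lay above 0 and 9 below it, where the 75th percentile had given 6 and 5. Higher probes were 85.0% of the 2-fold calls in the liver with the 75th percentile and 56.6% with the 50th. With normexp, the other background correction, the members' liver median was -0.16 beside 0.11 over all probes, and with quantile normalization it was -0.01 beside -0.02. *Gapdh*, the endogenous control of the study's PCR assays, had a mean log2 ratio of 0.00 in the liver over 7 probes (SD 0.23 between probes), 0.04 in the ovary (SD 0.11) and -0.05 in the uterus (SD 0.14). In the liver the *Gapdh* probes ran from -0.48 to 0.24, and 8 of the 11 member probes lay within that range, all but *Hspa1a*, *Hspb1* and *Chac1*.

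Since *Trib3* was lower in the liver and higher in the other tissues, the difference between these effects was also tested, after the ratios had been seen. The liver effect of *Trib3* was below the mean effect in ovary and uterus by a log2 difference of -0.77 (SE 0.223, 95% confidence interval -1.44 to -0.09, limma adjusted p = 0.346). The liver effect of *Hspa1a* was above it by 0.69 (SE 0.233, interval -0.02 to 1.39, limma adjusted p = 0.391). Of 43892 probes 0 were called (0%) and 5728 had an unadjusted p under 0.05, and the fit has 1 residual degree of freedom among arrays. The difference was therefore not called for any member.

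The hepatocyte markers on the BHPF uterus array are given beside the uterus values because *Chac1* and *Trib3* were much brighter in the liver than in the uterus. Over 466 probes whose control liver level was 64-fold or more above that of the other control tissues, the excess on the BHPF uterus array was a median of 0.657% of the liver level, with quartiles of 0.341% and 1.30%, and on the BHPF ovary array 0.0229%. Taking that share of liver signal away changed the uterus log2 ratio of *Chac1* from -0.15 to -0.32, as 11.6% of its BHPF level was accounted for, and that of *Trib3* from 0.35 to 0.30. For the other 9 probes the amount subtracted was at most 1.70% of the BHPF uterus level. In the liver the neutrophil markers differed between the arrays as given above, with 3 of their 15 probes not well above background on the BHPF array. Their part in the liver ratios was not tested, and in tissue RNA fewer cells of a type and less RNA per cell cannot be told apart.

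More member probes were called between tissues than between treatments. With treatment as a block, limma called 6 of the 11 member probes between liver and ovary, 2 between ovary and uterus and 11 between uterus and liver, beside 59.4%, 23.5% and 52.6% of all 43892 probes. Each tissue had 2 arrays, of different treatment, so the spread behind these tests includes the effect of BHPF that differs between tissues. *Gapdh* was itself lower in the uterus than in the liver at all 7 probes, by log2 differences of -0.87 to -1.17, as a measure of how far a housekeeping gene moves on this scale.

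*Chac1* and *Trib3* were highest in the liver. *Chac1* was higher in the liver than in the ovary by 3.79 on the log2 scale (SE 0.163, limma adjusted p = 0.000759), and ovary and uterus differed by 0.00 (SE 0.163, limma adjusted p = 0.994). *Trib3* was higher in the liver than in the ovary by 3.19 (SE 0.256, limma adjusted p = 0.00207), and its uterus minus liver difference was -2.31 (limma adjusted p = 0.00451). The ovary minus uterus difference of *Trib3*, -0.88, did not pass (limma adjusted p = 0.0835). The liver calls of both genes held under all 15 alternatives, those that left out an array included.

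*Hspb1* and *Hspa1a* had the opposite order, with the uterus highest and the liver lowest. *Hspb1* was higher in the uterus than in the liver by 4.02 (SE 0.153, limma adjusted p = 0.000734), and its liver minus ovary difference was -2.69 (limma adjusted p = 0.00108). Both held under all 15 alternatives, and the ovary minus uterus difference of -1.33 (limma adjusted p = 0.0112) under 11 of 15. *Hspa1a* was higher in the uterus than in the liver by 1.73 (SE 0.238, limma adjusted p = 0.0076), and its liver minus ovary difference was -0.82 (limma adjusted p = 0.0467). That call held under 8 of 15 alternatives. The ovary minus uterus difference of *Hspa1a*, -0.91 (SE 0.238, interval -1.58 to -0.25), missed the threshold (limma adjusted p = 0.0682) and was called under 8 of 15 alternatives.

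*Hspa5* was higher in the liver than in the ovary by 0.91 (SE 0.144, limma adjusted p = 0.01). That call held under 8 of the 9 alternatives that kept every array. The difference still ranged from -0.04 to 1.23 over the alternatives, so its direction is not settled. The uterus minus liver difference of *Hspa5* was -1.14 (limma adjusted p = 0.0062), a size like that of *Gapdh*, and was called under 8 of the same 9. *Ddit3* had a uterus minus liver difference of 0.61 (interval 0.19 to 1.03, limma adjusted p = 0.0329), which ranged from 0.16 to 0.98 and was called under 8 of 15 alternatives and in 0 of the 6 fits without an array. Its liver minus ovary difference of -0.46 was not called (limma adjusted p = 0.0603), nor was its ovary minus uterus difference (limma adjusted p = 0.502). For *Dnajb1*, both probes of *Hsph1* and both of *Atf4*, uterus minus liver differences lay between -0.61 and -0.87. These calls held under 6 of 15 alternatives for *Dnajb1*, 6 for the brighter and 13 for the dimmer probe of *Hsph1*, and 8 for each probe of *Atf4*. The difference ran up to 0.17 for *Dnajb1* and up to 0.11 for the brighter *Atf4* probe, so these directions turned under some alternatives. The order of liver and ovary was settled for none of the 3 genes, since the difference changed sign among the alternatives at each of their probes. Only the brighter *Atf4* probe was called there, at 0.77 (limma adjusted p = 0.0133). That call held under 11 of 15 alternatives, with a lowest difference of -0.05.

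**Figure D4:**
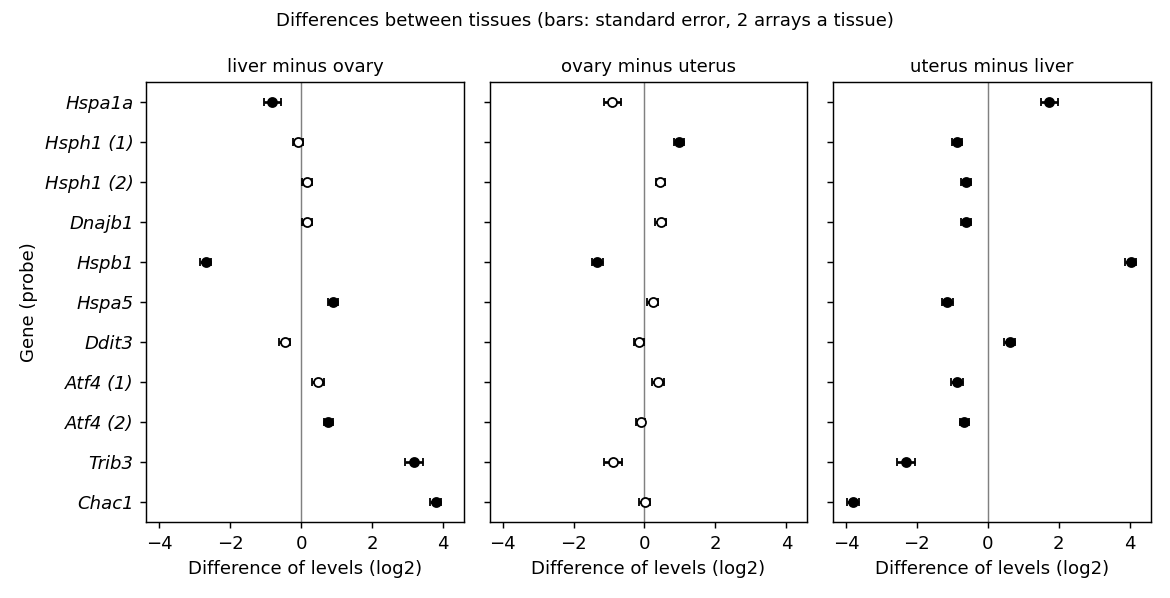
Differences of levels between tissues on the log2 scale for the 11 member probes, estimated with limma from 2 arrays a tissue; bars are standard errors and filled points have an adjusted p under 0.05. *Chac1* and *Trib3* lie far on the liver side and *Hspb1* far on the uterus side. The points of ovary minus uterus run from -1.33 for *Hspb1* to 0.97 for the dimmer probe of *Hsph1*, both of them called.

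The genes whose levels followed those of a member most closely were found by the root mean square difference over the 6 arrays, after centring each of 13701 genes on its mean. For *Hspa1a* they were *H2ac1* (0.078), *Abcc4* (0.094) and *Bcl9* (0.118). *Abcc4* had levels of -1.55 and -0.75 in the liver, -0.20 and -0.35 in the ovary, and 0.49 and 0.53 in the uterus. For *Hspa5* they were *Mrpl20* (0.057), *Zbtb48* (0.059) and *Hyal2* (0.066), and for *Trib3*, less closely, *Slc4a4* (0.161), *Hsd3b7* (0.162) and *Hs6st1* (0.163). None of these is a chaperone or a stress factor by name, and with 6 arrays the likeness rests mainly on the 3 tissues.

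The wider pathways were described by 6 lists, of which the members are a part, with 0 probes called by limma in any of them for the difference shared by the tissues. Their counts of 2-fold probes are to be read against the shares of all probes given above for each tissue, such as 6.02% higher in the liver. Of the cytosolic chaperones and heat shock factors, 28 genes with 39 probes, 1 of 37 evaluated probes was 2-fold higher in the liver and none was 2-fold changed in the ovary or uterus. The probe was that of *Dnajb4*, an Hsp40 protein, with levels of -0.63 on the control and 0.48 on the BHPF liver array, and log2 ratios of 1.10, -0.23 in the ovary and -0.45 in the uterus. The brightest genes of the list, *Hsp90ab1* and *Hspa8*, constitutive chaperones, had liver ratios of -0.27 for the former and of 0.42, 0.08 and 0.00 at the 3 probes of the latter. The median of the list in the liver was 0.00, beside 0.06 over all probes.

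Small heat shock proteins (8 genes) had 0 probes changed 2-fold, of 7 evaluated in the liver, 8 in the ovary and 8 in the uterus. Mitochondrial chaperones and proteases (10 genes) had 0 of 14 in each tissue. With so few probes, 0 is near the shares of all probes. *Hspb8* and *Hspb11*, the brightest genes entered on the list of small heat shock proteins, had liver ratios of -0.10 and -0.03. *Hspa9* and *Hspd1*, the Hsp70 and Hsp60 of mitochondria, had liver ratios of -0.04 and 0.23, ovary ratios of 0.09 and 0.25, and uterus ratios of 0.14 and -0.17.

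The list of chaperones and degradation genes of the endoplasmic reticulum held 28 genes with 36 probes, all evaluated in the liver, and 1 was 2-fold higher there. It belonged to *Dnajb9*, a co-chaperone of BiP that the IRE1 branch induces, with levels of -1.05 and 0.07 and log2 ratios of 1.12 in the liver, -0.30 in the ovary and -0.41 in the uterus. The other *Dnajb9* probe had a liver ratio of 0.46, so the size of the difference rests on the probe. The bright members of the list, *Ppib* and *Pdia3*, both folding enzymes, had liver ratios of 0.14 and 0.18. The list's median was 0.05 in the liver, 0.09 in the ovary and -0.12 in the uterus, beside 0.06, 0.00 and 0.01 over all probes. Above 0 were 25 of 36 evaluated probes in the liver and 24 of 35 in the ovary. In the uterus 25 of 34 were below 0. Of all evaluated probes, 57.6%, 50.7% and 51.4% were above 0 in the liver, ovary and uterus.

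Among 19 sensors and regulators of the unfolded protein response, 0 probes changed 2-fold, of 21 evaluated in the liver, 21 in the ovary and 20 in the uterus. That count is also near the shares of all probes. *Xbp1*, whose RNA the IRE1 sensor splices, had levels of 3.50 and 3.71 in the liver, with ratios of 0.21 in the liver, 0.23 in the ovary and -0.17 in the uterus. *Creb3*, a factor held in the membrane of the endoplasmic reticulum, had ratios between -0.11 and -0.01. Of the 32 targets of the integrated stress response with 40 probes, 2 of 37 evaluated probes were 2-fold higher in the liver, and both belonged to *Phgdh*, the first enzyme of serine synthesis and a target of ATF4. Their liver levels were -2.92 and -2.48 on the control array and -1.66 and -1.33 on the BHPF array, with ratios of 1.25 and 1.14, beside 0.24 and 0.26 in the ovary and -0.22 and -0.02 in the uterus. *Atf5* and *Gars*, the brightest targets, had liver ratios of -0.34 and -0.06. With the arrays aligned at the 50th percentile, no probe of any of these lists was 2-fold higher in the liver. *Dnajb4* came to 0.79, *Dnajb9* to 0.81 and *Phgdh* to 0.94 and 0.83. At that alignment 1 probe of the integrated stress response targets was 2-fold lower in the liver. Of all liver probes, 3.37% were then 2-fold higher and 2.58% were 2-fold lower.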

How the data were processed

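RNA of 6 pools was measured on single-colour Agilent arrays. The authors extracted the scans with Feature Extraction (version 11.5.1.1 in the file headers, 9.1 in the submitters' processing notes) and deposited a background-subtracted, detrended intensity per spot on a linear scale. A deposited table of log2 values was made by the authors with a percentile shift in GeneSpring. It was used as an alternative.

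Without outlier and control spots, replicate spots were averaged on the log2 scale, and each array was aligned at its 75th percentile. A probe was evaluated where either array of the tissue had it well above background, and a dim side was set to the detection bound. Symbols came from RefSeq transcripts of GRCm38.p6, for 26762 of 55681 probes (48.1%). The array design names another build, so no probe coordinates are given. Tests used limma 3.58.1 in R 4.3.3 (lmFit and eBayes, Benjamini-Hochberg adjustment over all probes tested), with Python 3.11.15 for the rest, and were tested on simulated data. Normexp, with an offset of 50, used the median spot and local background intensities in place of the detrended intensity. It thus changed more than the background correction.

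The members and the lists were chosen with earlier results of these data known, and so are no independent evidence. Named genes were all members, from each list the 2 brightest and those changed 2-fold, the 3 genes most like *Hspa1a* (in place of *Hspa1b*), *Hspa5* and *Trib3*, and *Gapdh*. The number of arrays limits the precision.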

Additional observations from a re-analysis of the deposited data

Results flagged for a closer look

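*Trib3* drew attention because its difference between the BHPF array and the control array was not the same in the tissues. The log2 ratio was -0.39 in the liver, 0.41 in the ovary and 0.35 in the uterus, and the liver effect minus the mean of the others was -0.77 (SE 0.223, unadjusted p = 0.0359 and adjusted p = 0.346 in limma). The sign was negative in the liver and positive in the ovary and uterus with the 75th and 50th percentiles, normexp and quantile normalization. With the table of processed values as headed, the uterus ratio was -0.35. Each ratio compares 1 array with 1 array, and the test was added after the ratios had been seen. Of all 43892 probes, 5728 had an unadjusted p under 0.05 in the same limma test, so such a difference was not particular to *Trib3*.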

How the results depend on the processing

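No member probe changed 2-fold in any tissue under any setting but the 1.5-fold threshold, which gave 1 in the liver. No member was called for the difference shared by the tissues, also without a tissue block, without 1 tissue and without 1 array. These fits called 0 probes of any gene, so they say nothing particular about the members. With tissue as a block, an array without its partner carries no treatment difference. A fit without 1 array thus nearly repeats the fit without that tissue. The members' liver median, 0.03, was -0.16 with normexp and -0.28 with the 50th percentile. Their ovary median, 0.02, was -0.18 with normexp. Their uterus median, -0.08, was -0.16 with the 50th percentile and 0.085 with the value table as headed. Of 288 gene ratios under alternatives, 258 moved by less than the noise between spots and 30 moved more. Many of the 258 could not move. The settings for dim probes leave members unchanged, as all their probes were well above background on every array. Taking the brightest probe changes nothing for a gene with 1 probe. The sign changed in 22, 9 of them uterus genes in the table as headed and 13 with normexp, the 50th percentile or quantile normalization. The count of 6 between liver and ovary was 3 without the control or the BHPF ovary array, and 5 to 6 without each other array. The count of 2 between ovary and uterus was 4 with normexp, 5 with the probes well above background on all arrays, 6 with a variance trend, and 0 to 4 with an array left out (0 without either ovary or either uterus array). The count of 11 between uterus and liver was 7 with the percentile over probes well above background, 6 with quantile normalization, and 4 to 8 with an array left out (4 without either uterus array). The cause was not tested. The tissue block pairs the arrays of a tissue. The values limit what can be said to differences beyond the noise between spots, and 1 array of 1 pool gives no spread between animals.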
